A study of Populus davidiana with 6 samples.

Results

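The loci described here are long single-gene loci of the poplar leaf transcriptome: loci that span over 8000 bases of the genome, hold annotated transcripts of a single gene name, and were measured in leaf. A locus is the set of transcripts that share a locus identifier in the deposited files, and its span runs from the lowest start to the highest end of those transcripts, introns included. Loci were kept where the annotated names reduced to 1 gene name, at least 1 transcript was annotated, and the summed FPKM (a fragment count scaled by transcript length and by library size) reached 1 in at least 3 of the 6 libraries. This gave 1446 loci of 40537 in the files, and of the 22729 that reached the same level. Another 119 loci met the rule on span and name but not on level. At 2 of the 1446 loci all control libraries were under 1 FPKM, and at 2 all air-dried libraries were, so these entered through 1 group.

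The samples were leaves of Populus davidiana, the Korean aspen, cultivar Palgong2, which is described as drought tolerant. All plants were grown in vitro for about 6 weeks on sugar-containing medium, at a stage given as seedling. The 3 control libraries came from untreated plants, and the 3 air-dried libraries from plants that were lifted from the medium, rinsed and kept in open air for about 10 min. The sources used here do not say if the controls were lifted and rinsed too, and the drying and the handling cannot be told apart. Poly(A) RNA was read as paired ends.

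The leaf samples are called triplicates, with no word on separate plants or cultures, and the p-values below reflect only how far these samples spread, which may be technical. Absolute depth is unknown, since the files hold no counts. Relative depth could only be estimated from the FPKM, with 130 to 159 loci per library. The estimates lay between 0.909 and 1.01 times the depth of control replicate 1. Across the long loci, log2 levels correlated at 0.985 to 0.989 between control libraries, at 0.976 to 0.992 between air-dried libraries, and at 0.963 to 0.982 between groups. Loci are not independent replicates, and these values describe the libraries only. In whole-leaf RNA, fewer cells of a type and less RNA per cell cannot be told apart. The files pair no identifier with a gene name or function, and positions, on a genome build that no source used here names, stand for the loci. The leaf label was not checked against cell type markers.

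A long plant gene is usually long because of its introns or because its coding sequence is long. RNA polymerase needs more time to pass along it, and its precursor RNA offers more places for alternative splicing, alternative starts and early ends. A locus in an assembly can also become long in another way, when reads join an annotated gene to sequence far away. Assembly programs then report a transcript that reaches across neighbouring genes.

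Some loci were long by annotation, and others passed 8000 bases only with assembled transcripts. Whether those transcripts joined neighbouring genes was not tested. The median span was 9946.5 bases (quartiles 8772 and 12265.8), and the range was 8001 to 298521 bases. At 1056 loci the annotated transcripts alone spanned over 8000 bases. At the other 390 loci, 27.0% of the total, the annotated transcripts spanned at most 8000 bases and assembled transcripts made up the rest. Spans over 50000 bases were found at 36 loci, and 32 of these had annotated transcripts of at most 8000 bases. The 3 loci just inside the span threshold (8001, 8003 and 8005 bases) had log2 changes of 0.00, -0.09 and -0.07. The 3 tested loci just outside it (7997, 7991 and 7991 bases) had log2 changes of -0.06, 0.05 and 0.06.

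The long loci held 11842 transcripts, 1783 annotated and 10059 assembled, with a median of 7 and a maximum of 64 per locus. Only 16 loci had 1 transcript. A total of 7024 transcripts (59.3%), in 1111 loci, shared both ends with another transcript of the same locus, so that they could differ only in their inner exons. Another locus overlapped 318 of the long loci, and at 18 there were 10 or more overlapping loci. The sources used here do not say whether the library kit kept strand, and where loci on opposite strands overlap, their reads cannot be told apart with certainty. The loci lay on all 19 numbered chromosomes, with 705 on the plus and 741 on the minus strand, and 26 lay on scaffolds.

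Most long loci were moderately expressed in every library. Of the 1446 loci, 1417 reached 1 FPKM in all 6 libraries, 240 had a mean under 5 FPKM and 35 a mean over 100 FPKM. The median level was 11.3, 12.2 and 11.5 FPKM in control replicates 1 to 3 and 12.9, 11.4 and 12.1 FPKM in air-dried replicates 1 to 3. The medians of the groups overlapped.

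The first comparison asked whether the total of each long locus differed between air-dried and control leaves. It used limma on log2(FPKM + 1), fitted over all 22729 loci, with Benjamini-Hochberg adjustment at 0.05. Fold changes on this scale understate the change of low loci. Air-dried leaves had higher totals at 37 long loci and lower totals at 15, together 3.6% of the 1446 against a background of 10.1% of all loci tested. Some called loci had a mean under 1 FPKM in 1 group. These lie at 10471259 on chromosome 13 and 15985226 on chromosome 6 (low in control), and at 1342772 on chromosome 17 (low in air-dried leaves). They reached the level for testing through the group where they are high, so their calls are a description only. The share called higher was 2.56% against a background of 7.28%, and the share called lower was 1.04% against 2.81%. Changes of at least 2-fold in FPKM + 1 were called at 4 loci, all higher (0.277% against 2.18% of all loci). They numbered 3 with median-of-ratios scaling and 2 with quantile normalization or upper-quartile scaling. None was called 2-fold lower, against 0.295% of all loci (1 was with quantile normalization, at 592711 to 601049 on chromosome 2), while 207 of the 1446 had an unadjusted limma p under 0.05 (14.3% against 26.3%). A further 3 loci had a change of at least 2-fold upward that did not pass the adjusted threshold.

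The changes were small as well as few. The median log2 change was 0.03, against 0.07 over all loci tested, and the median absolute log2 change was 0.10 against 0.17. The middle 90% of long loci lay between -0.25 and 0.37, and that of all loci between -0.43 and 0.84. The median standard error was 0.10 for long loci and 0.12 for all loci. The 2 groups of 3 libraries did not overlap at 328 long loci (22.7% against 32.9% of all loci), 193 of them higher (13.3% against 22.6%) and 135 lower (9.34% against 10.3%) in air-dried leaves. These shares are descriptions, and no test set the long loci against the rest.

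The direction of the called changes depended on how libraries were scaled. With the deposited values, 71.2% of the called long loci were higher in air-dried leaves. With median-of-ratios scaling the counts were 31 higher and 41 lower (43.1% higher). Quantile normalization gave 22 and 48 (31.4% higher), and upper-quartile scaling gave 25 and 63 (28.4% higher). The share of long loci called was 4.98%, 4.84% and 6.09% under these scalings, against 10.3%, 9.62% and 10.6% of all loci. Scaling moved the median of all loci from 0.07 to 0.00, -0.05 and -0.05, while the median of the long loci stayed 0.04 below that of all loci in each case (0.03, -0.04, -0.09 and -0.09). All 52 called loci kept their direction under each scaling, and 45, 36 and 40 of them stayed past the threshold.

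Fewer higher totals were called with any library left out. Without control replicate 1, 2 or 3 the counts were 10 higher and 3 lower, 21 and 3, and 12 and 3. Without air-dried replicate 1 they were 27 and 17. Without air-dried replicate 2 or 3 they were 21 and 5, and 13 and 2.

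**Figure D1:**
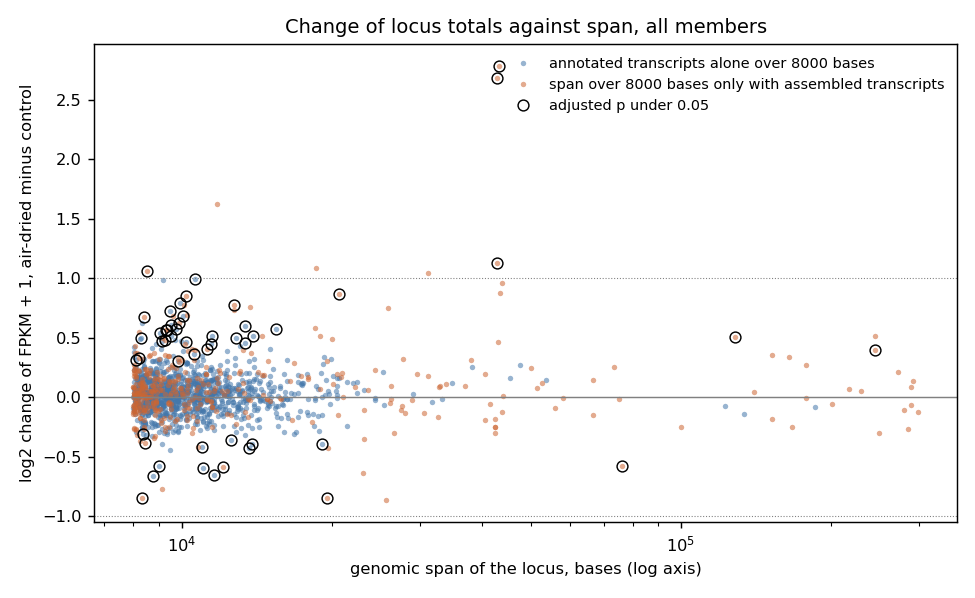
Change of the total of each of the 1446 long loci (y axis, log2 of FPKM + 1, air-dried minus control) against the genomic span of the locus in bases (x axis, log scale). Colour shows whether annotated transcripts alone span over 8000 bases, and rings mark loci with an adjusted p under 0.05; the largest changes, up to 2.79, belong to loci that exceed 8000 bases only with assembled transcripts.

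The share called was larger among loci that exceed 8000 bases only with assembled transcripts. Of the 1056 loci whose annotated transcripts span over 8000 bases, 21 were higher and 10 lower (2.94% called). None of them was called at 2-fold on the scale of FPKM + 1. The largest called rise among them came close, with a log2 change of 0.995 on that scale and a ratio of mean FPKM of 2.06. Of the other 390 loci, 16 were higher and 5 lower (5.38% called), and all 4 called 2-fold rises were among them. The median absolute log2 change was 0.09 in the first class and 0.14 in the second. Whether the classes differ was not tested. The split was nearly the same by overlap: 35 loci were called among the 1128 that overlap no other locus (24 higher, 11 lower; 3.10% called), and 13 higher and 4 lower among the 318 that overlap one (5.35% called).

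The share of calls also varied with other features of the long loci. By span, 17 loci were higher and 5 lower among the 735 of up to 10000 bases (2.99% called). Among the 511 of over 10000 and up to 15000 bases, 13 were higher and 7 lower (3.91% called). The 200 over 15000 bases gave 7 and 3 (5% called). By number of transcripts, 9 of 125 loci with 1 or 2 transcripts were called (7.2%), 33 of 894 with 3 to 9 (3.69%), and 10 of 427 with 10 or more (2.34%). By level, 12 of 240 loci under 5 FPKM were called (5%). The counts were 18 of 807 from 5 to under 20 FPKM (2.23%) and 22 of 399 from 20 FPKM up (5.51%). Over all loci tested 10.1% were called, and this share was not split by these features. None of the differences between classes was tested.

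The 2 loci with the largest rises lie opposite each other on chromosome 13 and overlap nearly end to end. The plus-strand locus at 10469858 to 10513159 (43302 bases, POPTR_0013s10350.r1) measured 3.29, 2.70 and 4.71 FPKM in control replicates 1 to 3 and 30.9, 30.9 and 28.2 FPKM in air-dried replicates 1 to 3. Its mean rose from 3.57 ± 1.03 to 30.0 ± 1.57 FPKM (SD, n = 3 each; log2 change 2.79, SE 0.16, limma adjusted p 0.000430). Every air-dried library was above every control library.

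The minus-strand locus at 10471259 to 10514111 (42853 bases, POPTR_0013s10370.r1) measured 0.704, 0.271 and 0.175 FPKM in control leaves and 8.09, 7.29 and 7.99 FPKM in air-dried leaves. Its mean rose from 0.383 ± 0.282 to 7.79 ± 0.436 FPKM (SD, n = 3 each; log2 change 2.69, SE 0.16, limma adjusted p 0.000430). All of its control libraries were under 1 FPKM, so it entered the set through its air-dried libraries, and its call is a description only. Since the 2 loci overlap on opposite strands, how the reads divide between them cannot be told.

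Annotated transcripts carried little of either total. The annotated transcript of the plus-strand locus spans 1956 bases and lies at one end. It was under 0.0001 FPKM in 5 libraries and at 0.371 FPKM in air-dried replicate 2. That of the minus-strand locus spans 1921 bases at the other end. It was under 0.0001 FPKM in all control libraries and at 0.730, 1.202 and 0.265 FPKM when air-dried (replicates 1 to 3). Assembled transcripts of 42853 to 43302 bases held nearly all of the level of the plus-strand locus and most of that of the minus-strand locus. The 3 assembled transcripts that rose had limma adjusted p of 0.00229 (43302 bases), 0.00784 (42853 bases) and 0.0246 (42921 bases). That of 42853 bases, on the minus strand, reached the level for testing through its air-dried libraries alone.

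**Figure D2:**
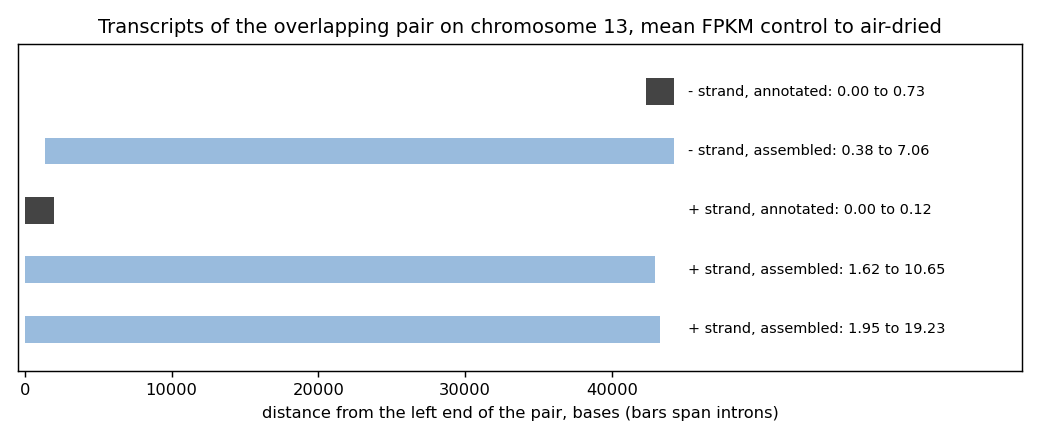
Transcripts of the 2 overlapping loci on chromosome 13, drawn to scale as distance in bases from the left end of the pair (x axis), each with its mean FPKM in control and in air-dried leaves. The assembled transcripts that reach across 42853 to 43302 bases hold the rise, while the 2 short annotated transcripts at the ends reach means of at most 0.73 FPKM.

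The other 2 called 2-fold rises were also at loci lengthened by assembly. On scaffold_256, at 1043 to 43805 (42763 bases, annotated transcript 1093 bases), the total was 14.7, 10.3 and 16.6 FPKM in control and 41.1, 28.4 and 25.4 FPKM in air-dried leaves (log2 change 1.13, SE 0.23, limma adjusted p 0.0356). The groups did not overlap, but the air-dried libraries spread widely. The call was lost when any one library was left out: adjusted p was 0.104, 0.0841 and 0.0692 without control replicates 1 to 3 and 0.0503, 0.0871 and 0.0668 without air-dried replicates 1 to 3. Its 2 assembled transcripts have the same ends. The levels split between them at 6.61 and 6.61 FPKM in control replicate 1, but 10.3 and 0.0006 in control replicate 2.

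At 9379125 to 9387664 on chromosome 9 (8540 bases, 5 transcripts), the total was 4.24, 4.53 and 3.89 FPKM in control and 10.4, 9.80 and 9.35 FPKM in air-dried leaves (log2 change 1.06, SE 0.08, limma adjusted p 0.00124). Every air-dried library was above every control library. Here the change belonged to an annotated transcript of 2099 bases at the 5′ end, at 4.11, 4.53 and 3.89 FPKM and 10.4, 8.91 and 9.35 FPKM (limma adjusted p over transcripts 0.0266). The assembled transcript that gives the locus its 8540 bases was under 0.0001 FPKM in all 6 libraries.

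Among loci that are long by annotation, the largest called rise was at 914928 to 925576 on chromosome 1 (10649 bases, annotated transcript 10599 bases, 15 transcripts, no overlapping locus). The total was 13.8, 15.0 and 14.5 FPKM in control and 30.3, 29.4 and 29.5 FPKM in air-dried leaves. Its mean rose from 14.4 ± 0.630 to 29.7 ± 0.470 FPKM (SD, n = 3 each; log2 change 1.00, SE 0.06, limma adjusted p 0.000539). The groups lay far apart and each was tight, and the log2 change of 0.995 lay just under the 2-fold threshold. The rise was clearest in an assembled transcript of 10439 bases, at 8.08, 8.09 and 5.99 FPKM in control and 15.3, 21.9 and 18.3 FPKM in air-dried leaves (limma adjusted p over transcripts 0.0428). The annotated transcript itself was under 0.0001 FPKM in all 6 libraries.

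Further rises at loci long by annotation, chosen for naming after their values were seen, were smaller. The next in size, at 21159809 to 21169756 on chromosome 2, was 9.92, 12.3 and 11.4 FPKM in control and 23.4, 22.9 and 15.0 FPKM in air-dried leaves (log2 change 0.79, SE 0.18, limma adjusted p 0.0498). This call was lost under most alternatives: adjusted p was 0.156, 0.0997 and 0.137 without control replicates 1 to 3, 0.0921 and 0.133 without air-dried replicates 1 and 2, and 0.0617 to 0.0665 with the other 3 scalings. On scaffold_30, at 79333 to 88805, the total was 9.52, 9.70 and 9.34 FPKM in control and 16.8, 15.1 and 17.1 FPKM in air-dried leaves (log2 change 0.72, SE 0.07, limma adjusted p 0.00302). At 7273405 to 7283471 on chromosome 2 the total was 14.4, 16.4 and 16.0 FPKM and 29.9, 23.9 and 23.7 FPKM (log2 change 0.69, SE 0.11, limma adjusted p 0.0162). The groups did not overlap at any of these loci. Without control replicate 1 or 3 the adjusted p of the locus at 7273405 was 0.0705 or 0.0632.

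The largest called fall was at 592711 to 601049 on chromosome 2 (8339 bases, annotated transcript 7419 bases, POPTR_0002s01110.r1). The total was 137, 155 and 153 FPKM in control and 83.3, 76.2 and 85.8 FPKM in air-dried leaves. Its mean fell from 148 ± 9.77 to 81.8 ± 5.001 FPKM (SD, n = 3 each; log2 change -0.85, SE 0.08, limma adjusted p 0.00274). Its control level was the highest among the 52 called long loci, and the groups were well apart. The annotated 7419-base transcript measured 62.9, 85.3 and 71.3 FPKM against 33.2, 41.1 and 45.4 FPKM. An assembled 8304-base transcript measured 31.4, 27.4 and 35.4 FPKM against 16.6, 11.6 and 14.1 FPKM (limma adjusted p over transcripts 0.0391). Both were lower in every air-dried library.

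A fall at 6186978 to 6198591 on chromosome 18 (11614 bases, annotated transcript 11543 bases) ran through short and long transcripts alike. The total was 35.0, 36.8 and 33.6 FPKM in control and 23.3, 19.7 and 22.9 FPKM in air-dried leaves (log2 change -0.66, SE 0.09, limma adjusted p 0.00787). The annotated transcript was at 14.6, 18.5 and 15.2 FPKM against 10.8, 8.76 and 9.89 FPKM. A 4692-base assembled transcript at the 3′ end was at 18.7, 15.7 and 16.4 FPKM against 12.2, 10.0 and 12.5 FPKM. Each was lower in all air-dried libraries, though neither passed the threshold over all transcripts (limma adjusted p 0.105 and 0.157).

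The other 3 of the 5 largest falls were at low levels. At 47367082 to 47386630 on chromosome 1 (POPTR_0001s47040.r1, annotated transcript 1183 bases), the total was 7.77, 7.16 and 7.00 FPKM in control and 2.65, 4.25 and 4.11 FPKM in air-dried leaves (log2 change -0.85, SE 0.16, limma adjusted p 0.0253). At 13330406 to 13339183 on chromosome 11 it was 6.42, 6.42 and 6.04 FPKM and 4.49, 3.03 and 3.38 FPKM (log2 change -0.67, SE 0.13, limma adjusted p 0.0299). At 2944494 to 2955553 on chromosome 7 it was 7.36, 7.53 and 8.20 FPKM and 5.09, 3.999 and 5.22 FPKM (log2 change -0.60, SE 0.11, limma adjusted p 0.0251). In all 3 the groups did not overlap, and in all 3 the call was lost when libraries were left out. The adjusted p of the chromosome 1 locus was 0.101, 0.0783 and 0.0827 without control replicates 1 to 3 and 0.0622 without air-dried replicate 3. That of the chromosome 11 locus was 0.110, 0.0935 and 0.0923 without control replicates 1 to 3, and 0.0753 and 0.110 without air-dried replicates 2 and 3. That of the chromosome 7 locus was 0.0823, 0.0759 and 0.0956 without control replicates 1 to 3 and 0.0612 without air-dried replicate 3.

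Falls and rises were also called at abundant loci, named after their values were seen, and the falls had the higher control levels. At 42750513 to 42758880 on chromosome 1 the mean was 132 FPKM in control and 106 FPKM in air-dried leaves (log2 change -0.31, limma adjusted p 0.0366). At 18426517 to 18439095 on chromosome 6 it was 107 and 83.2 FPKM (log2 change -0.36, limma adjusted p 0.0491). Both of these calls were lost when libraries were left out (limma adjusted p up to 0.131 and 0.167). The rises were these. At 7479784 to 7607869 on chromosome 16 (128086 bases, annotated transcript 1585 bases), the total was 69.5, 72.3 and 74.2 FPKM in control and 107, 96.3 and 104 FPKM in air-dried leaves (log2 change 0.50, SE 0.07, limma adjusted p 0.00972). Most of the gap lay in a 763-base assembled transcript, at 40.7, 29.1 and 39.1 FPKM against 68.1, 49.2 and 53.8 FPKM. The call was lost without control replicate 1 (adjusted p 0.0523), without air-dried replicate 3 (0.0591) and with quantile normalization (0.105). At 16967312 to 16977901 on chromosome 3 (10590 bases, all annotated), the total was 59.2, 62.8 and 61.2 FPKM in control and 81.2, 78.0 and 77.7 FPKM in air-dried leaves (log2 change 0.37, SE 0.06, limma adjusted p 0.0178). At each of these loci, falls and rises, the groups did not overlap. The call of the chromosome 3 locus was lost without control replicate 1 (adjusted p 0.0827) or 3 (0.0756), without air-dried replicate 2 (0.0572) or 3 (0.0820), and with quantile normalization (0.257) or upper-quartile scaling (0.0907).

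**Figure D3:**
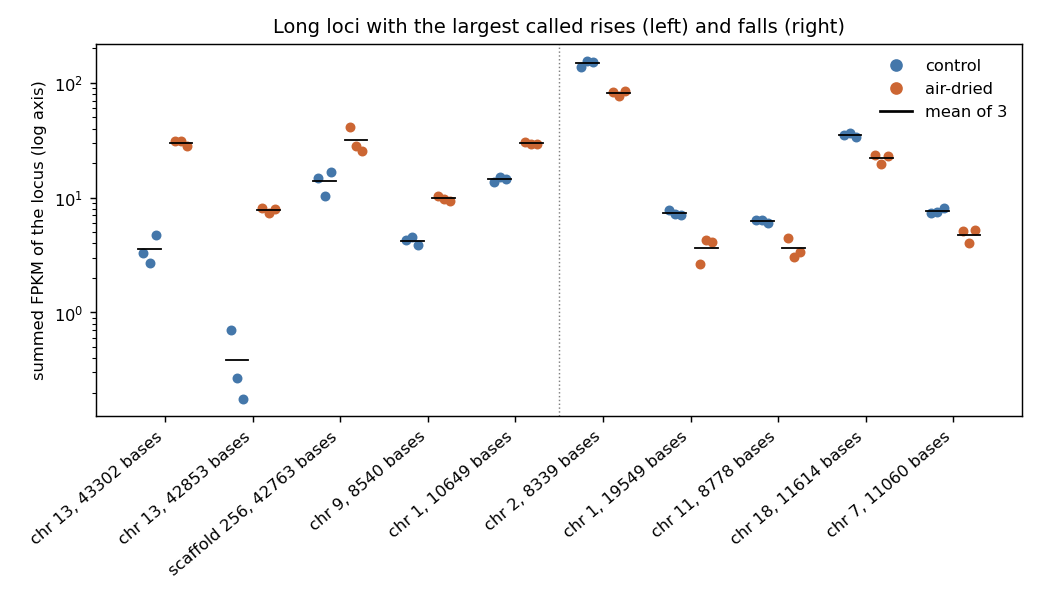
Summed FPKM (y axis, log scale) of the 5 long loci with the largest called rises and the 5 with the largest called falls, with 1 point per library, control and air-dried side by side, and a bar at the mean of 3. In each of the 10 loci every air-dried library lies on one side of every control library, with the widest gap at the 2 loci on chromosome 13.

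The most abundant long loci were long only through assembly. The 5 with the highest mean had annotated transcripts spanning at most 2141 bases, and none passed the threshold. At 1333975 to 1343044 on chromosome 3 the total was 7392, 10955 and 5432 FPKM in control and 7907, 9617 and 8385 FPKM in air-dried leaves (limma adjusted p 0.780). The groups overlapped. At 21716065 to 21739248 on chromosome 5 it was 2562, 2678 and 2709 FPKM in control and 1899, 2266 and 2080.2 FPKM in air-dried leaves (log2 change -0.35, SE 0.14, limma adjusted p 0.176). The air-dried libraries were all lower there. At 838421 to 867990 on chromosome 4 it was 1947, 1875 and 1895 FPKM in control and 2256, 2181 and 2102 FPKM in air-dried leaves (limma adjusted p 0.370). The air-dried libraries were all higher there.

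Loci long by annotation reached lower levels, and the most abundant of them, chosen for naming after their values were seen, did not pass the threshold on their totals. At 1969263 to 1986213 on chromosome 16 the mean was 325 ± 27.4 FPKM in control and 265 ± 19.8 FPKM in air-dried leaves (SD, n = 3 each; limma adjusted p 0.137). Within it, an annotated 15982-base transcript fell from 93.4, 96.7 and 86.2 FPKM to 60.6, 55.4 and 59.0 FPKM (log2 change -0.65, limma adjusted p over transcripts 0.0255). At 2421560 to 2437592 on chromosome 6 the mean was 226 ± 11.7 and 184 ± 10.9 FPKM (SD, n = 3 each; limma adjusted p 0.0789). Within it, an assembled 10943-base transcript fell from 56.5, 68.3 and 61.8 FPKM to 38.2, 40.1 and 41.6 FPKM (log2 change -0.62, limma adjusted p over transcripts 0.0467). In both loci a transcript passed the threshold where the total did not.

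The 5 longest loci spanned 285162 to 298521 bases, with annotated transcripts of 1655 to 3681 bases, and overlapped 31 to 42 other loci each. None was called. The longest, at 6881679 to 7180199 on chromosome 14, had a steady total of 80.9, 81.7 and 82.7 FPKM in control and 76.3, 72.4 and 76.4 FPKM in air-dried leaves (limma adjusted p 0.261). Its parts were not steady. The annotated 2634-base transcript was at 80.9, 21.5 and 82.7 FPKM in control replicates 1 to 3 against 76.3, 35.2 and 35.9 FPKM when air-dried. The 298521-base assembled transcript held the remainder, 60.1 FPKM in control replicate 2 and 37.2 and 40.5 FPKM in air-dried replicates 2 and 3, and was under 0.001 FPKM in the other 3 libraries.

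The same division without order by group was seen at other abundant loci. At 12035432 to 12265167 on chromosome 5 (229736 bases), the annotated 1493-base transcript was at 1029, 6535 and 614 FPKM in control against 2977, 7289 and 5992 FPKM when air-dried. The assembled 229736-base transcript was at 4436, 38.4 and 4108 FPKM in control against 1204, 31.9 and 125 FPKM when air-dried. Control replicate 2 was high in the annotated and low in the assembled transcript, the reverse of the other control replicates, and the control values alone spanned a wider range than the gap between the group means.

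The second comparison asked whether short and long transcripts of the same locus moved unequally. A transcript was called short where it spans under 50% of its locus, and the balance was log2(short + 1) minus log2(long + 1), with FPKM summed over each kind. Short transcripts were present at 531 of the 1446 loci, 1058 short against 10784 long transcripts in all. The balance could be tested at 330 loci, where short and long each reached 1 FPKM in at least 3 libraries. At 7 of the 330, the short or the long sum had reached that level through 1 group alone. At 101 the short transcripts carried over 50% of the level.

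No long locus passed the threshold for a change of balance (limma, Benjamini-Hochberg, lowest adjusted p 0.990), and the background over all 3117 loci tested was also 0%. At an unadjusted limma p under 0.05 there were 12 of 330 loci (9 toward short, 3 toward long), 3.64% against a background of 4.65%. Groups did not overlap at 28 loci (8.48% against 9.72%), 19 toward short and 9 toward long. The background was not split by direction, so these counts cannot show whether long loci lean differently from all loci. The median change of balance was 0.08 (quartiles -0.25 and 0.39), against 0.07 over all loci. The balance was measured with little precision: the median standard error was 0.45, and the median half-width of the unadjusted 95% interval was 1.09. The half-width was over 1 at 191 loci (57.9%), where a 2-fold shift of balance would not have reached an unadjusted limma p of 0.05. Adjustment over the 3117 loci asks for a larger shift still, also at the remaining loci.

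By library, the median balance of the 330 loci was -0.74, -0.98 and -0.65 in control replicates 1 to 3 and -0.84, -0.62 and -0.68 in air-dried replicates 1 to 3. Control replicate 2 was the lowest, and the groups overlapped. The median share of a locus held by short transcripts was 35.8%, 31.3% and 36.7% in control and 33.9%, 37.6% and 36.9% in air-dried leaves. The median log2 change was 0.08 for the short sums, 0.01 for the long sums and 0.05 for the totals. Short transcripts at the 5′ end (113 loci) had a median change of balance of 0.03, and those at the 3′ end (196 loci) of 0.11. Whether these differ was not tested.

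**Figure D4:**
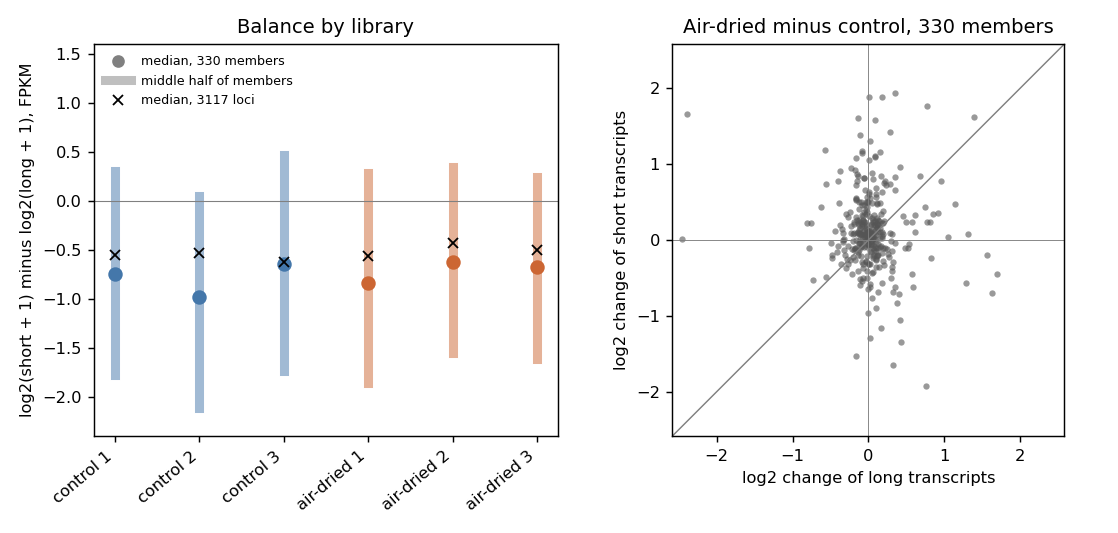
Balance of short against long transcripts at the 330 testable long loci: on the left the median and the middle 50% per library (y axis, log2 units) with the median of all 3117 loci as a cross, and on the right the log2 change of short transcripts against that of long transcripts. The library medians of the groups overlap, between -0.98 and -0.62, and the points spread to both sides of the line of equal change.

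The loci with the lowest unadjusted p, named after their values were seen, were these. At 6031415 to 6040991 on chromosome 3, short transcripts were at 8.85, 9.87 and 9.42 FPKM in control and 7.09, 8.57 and 4.65 FPKM in air-dried leaves. Long transcripts were at 1.62, 0.495 and 1.39 FPKM and 4.31, 4.79 and 9.36 FPKM (change of balance -2.15, SE 0.54, limma unadjusted p 0.00659, adjusted p 0.990). Neither sum overlapped between groups. At 14955946 to 14967767 on chromosome 4 the short transcripts were at 1.23, 1.199 and 0.00599 FPKM in control and 3.10, 4.15 and 5.70 FPKM in air-dried leaves, while the long ones were at 13.3, 16.2 and 14.8 FPKM and 14.2, 13.3 and 12.3 FPKM (change of balance 1.76, SE 0.46, limma unadjusted p 0.00809, adjusted p 0.990). Only the short sum was separated there. Both loci passed the threshold in the fourth comparison below, which takes transcripts of any span (limma diffSplice adjusted p 0.0150 and 0.0434). The first of these calls was lost without any 1 control replicate or without air-dried replicate 2 (limma diffSplice adjusted p up to 0.118). The second was lost with each library left out (limma diffSplice adjusted p 0.0534 to 0.201).

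A higher total beside a short transcript at or near 0 in control was found at 20473721 to 20482981 on chromosome 6 (9261 bases). The total was 23.1, 24.2 and 24.4 FPKM in control and 33.9, 33.3 and 34.1 FPKM in air-dried leaves (log2 change 0.48, SE 0.06, limma adjusted p 0.00585). A 4519-base assembled transcript at the 3′ end was listed at or near 0 in control and measured 1.37, 2.99 and 4.91 FPKM when air-dried. This transcript is the whole short sum of the locus and was tested only through its air-dried libraries, so its difference is a description. The total passed the threshold, and the balance did not (change 1.59, SE 0.43, limma adjusted p 0.990).

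The third comparison took each transcript of the long loci on its own. Of the 11842 transcripts, 3409 reached 1 FPKM in at least 3 libraries. In air-dried leaves 9 of these were higher and 6 lower, 0.44% against a background of 1.8% of the 40926 transcripts tested (0.264% higher against 1.48%, and 0.176% lower against 0.32%). Short transcripts gave 1 higher and 0 lower of 461, and long ones 8 higher and 6 lower of 2948. Over the whole series, short transcripts gave 33 higher and 7 lower of 5062, and long ones 573 and 124 of 35864. The median log2 change was 0.08 for short and 0.00 for long transcripts of the long loci, against 0.09 and 0.06 over the whole series. Of the 15 called transcripts, 7 (4 higher, 3 lower) reached the level for testing through 1 group alone, with no library of the other group at 1 FPKM, so they had to differ and their calls are a description only. Annotated transcripts gave 1 higher and 2 lower of 851, and assembled ones 8 and 4 of 2558. The background of 1.8% was not split into annotated and assembled transcripts. Without control replicates 1 to 3 the counts were 4 higher and 0 lower, 3 and 1, and 3 and 1. Without air-dried replicates 1 to 3 they were 3 and 2, 2 and 0, and 1 and 0.

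The position of the transcript in its locus was compared too. Long transcripts that reach both ends of the locus gave 8 higher and 2 lower of 2191. Long transcripts that reach only the 3′ end gave 0 higher and 3 lower of 480, and those that reach only the 5′ end gave 0 and 1 of 253. Short transcripts at the 5′ end gave 1 and 0 of 181, and those at the 3′ end gave none of 241. Over all transcripts tested in the series 1.8% were called, and this share was not split by position. With so few calls, the classes were not compared further.

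The fourth comparison asked whether any transcripts of a long locus changed unequally, whatever their span, with limma's diffSplice and a Simes p per locus. It found 9 of 1033 long loci with at least 2 tested transcripts, 0.871% against a background of 1.21%. At an unadjusted p under 0.05 the share was 11.7%, against 11.7% of all loci. None of the 9 had a called total. At 7 of the 9 loci a tested transcript had reached 1 FPKM in the libraries of 1 group alone, so a difference was built into its choice, and these calls are a description only. Left-out libraries moved the count: it was 9, 17 and 4 without control replicates 1 to 3, and 23, 10 and 8 without air-dried replicates 1 to 3.

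The clearest case was at 4799690 to 4811566 on chromosome 7 (11877 bases, 7 transcripts, limma diffSplice adjusted p 6.92e-06). Its total was 94.4, 106 and 99.3 FPKM in control and 102, 90.8 and 89.0 FPKM in air-dried leaves, with overlapping groups. An 11518-base assembled transcript was at 0.0121, 0.0326 and 0.0007 FPKM in control and 12.2, 5.62 and 5.43 FPKM in air-dried leaves. A 9701-base assembled transcript at the 5′ end went the other way, at 10.3, 18.9 and 5.49 FPKM in control and 0.105, 0.0239 and 0.2505 FPKM in air-dried leaves. Each was tested only because of the group where it is high, and the call of the locus rests on transcripts chosen that way. The 2 most abundant transcripts, of 11875 and 11877 bases, overlapped between groups. The call held with each library left out.

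At 22009521 to 22018171 on chromosome 4 (8651 bases, limma diffSplice adjusted p 0.00127), an annotated 6460-base transcript was at 2.37, 1.98 and 1.97 FPKM in control and 0.312, 0.0002 and 0.0433 FPKM in air-dried leaves. It was tested only because of its control libraries, which are high. An assembled 8651-base transcript was at 2.29, 3.42 and 2.91 FPKM and 3.30, 3.65 and 4.34 FPKM. The first was separated between groups and the second was not. At 11481588 to 11495814 on chromosome 15 (limma diffSplice adjusted p 0.00541), the leading transcript was an assembled one of 14219 bases in all control libraries (4.37, 7.60 and 5.98 FPKM). In all air-dried libraries it was the annotated one of 14210 bases (6.12, 4.53 and 6.67 FPKM). It also holds a transcript tested through its air-dried libraries alone, and the call was lost without control replicate 3 (adjusted p 0.0667).

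**Figure D5:**
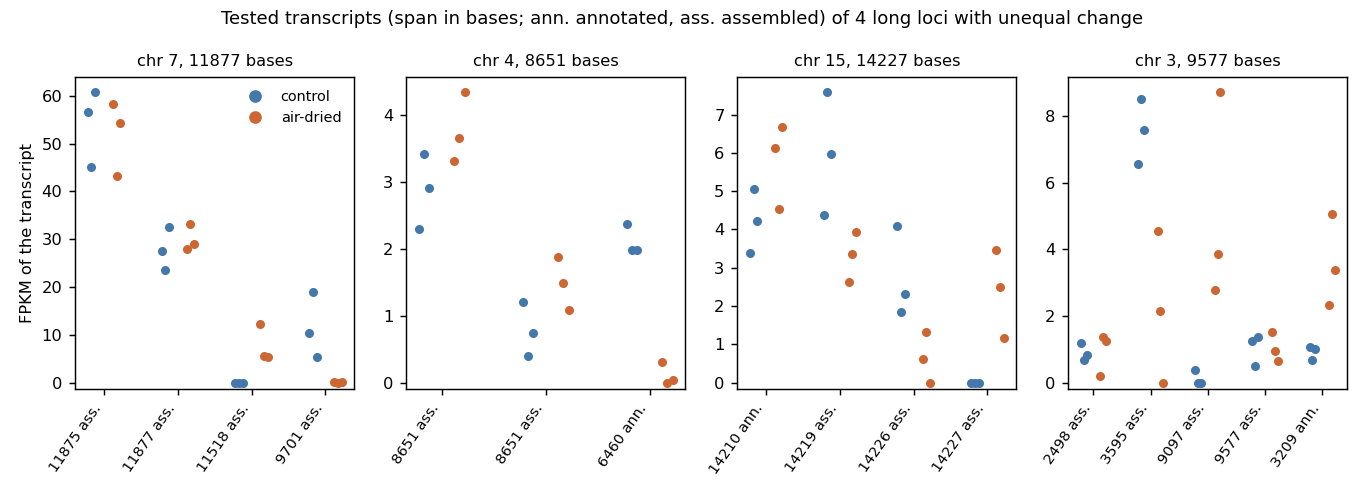
FPKM (y axis, a separate linear scale per panel) of the tested transcripts of 4 long loci with unequal change of transcripts, 1 point per library, control and air-dried side by side, with transcripts named by span in bases and as annotated or assembled. In the left panel the 9701-base transcript is near 0 in the air-dried libraries and the 11518-base transcript is near 0 in the control libraries.

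The leading transcript often differed between libraries, also within a group, and clean switches between the groups were rare. At 1429 long loci there were at least 2 transcripts and a nonzero total in every library. The same transcript led in all 6 libraries at 801 of them (56.1%, against 61.2% of the 16676 such loci among all tested). The leading transcript was the same in all control libraries at 964 (67.5%, against 72.1% of the 16676). In all air-dried libraries it was the same at 947 (66.3%, against 71.0%). A clean switch between groups occurred at 2 of the long loci (0.140%, against 0.402% of the 16676). One was the chromosome 15 locus above. The other, at 2950639 to 2959701 on chromosome 3, was led in control by an annotated 8993-base transcript (16.1, 15.9 and 19.99 FPKM, against 12.1, 11.8 and 7.21 FPKM in air-dried leaves). In air-dried leaves it was led by an assembled 7872-base transcript (20.1, 17.2 and 21.3 FPKM, against 9.11, 13.2 and 6.04 FPKM in control). Its total did not pass the threshold (limma adjusted p 0.0625), nor did its test of unequal change (limma diffSplice adjusted p 0.105).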

How the data were processed

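Leaf poly(A) RNA from 3 control and 3 air-dried samples was analysed from deposited tables, which per the file headers give FPKM per transcript with locus, position, strand and status. In these deposited FPKM, fragments are scaled by transcript length and library size. FastQC, TopHat and Cufflinks are named, with no version, per the submitters' processing notes. Genome build, annotation and strand setting: not given in the sources used here.

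FPKM were summed per locus, and loci or transcripts that reached 1 FPKM in 3 or more of the 6 libraries were tested. Values were compared as log2(FPKM + 1) with limma 3.58.1 in R 4.3.3 (two-sided, mean-variance trend except for the balance, no covariates), and p-values were adjusted by Benjamini-Hochberg over the whole table. Unequal change of transcripts used diffSplice with Simes p. Joins and summaries used Python 3.11.15 with pandas 2.3.3, and figures matplotlib 3.10.9. The fits were tested on simulated data. Depth limits precision, and intervals over fragments cannot be given without counts.

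The members, lists and tests were chosen with earlier results of these data known. Loci named were the 5 called rises and 5 called falls with the largest change and groups not overlapping, the 5 highest, the 5 longest, the called changes of balance (none) and those nearest the span threshold. Others are marked in the text. Lists by gene description and cell type markers were not analysed here, for want of names in the files. Alternatives were the pseudocount (0.1, 5), the filter (none, 5 FPKM), 3 scalings, library weights, no trend, the replicate number as a block, each library left out, the span (10000 bases), a transcript span of at least 500 bases, overlap, and short as under 25% or 75% of the locus. The span of annotated transcripts alone was added after seeing the data.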

Additional observations from a re-analysis of the deposited data

How the results depend on the processing

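Of the 37 higher and 15 lower totals, all 52 kept their direction under each alternative that still tested them. Counts moved with the scaling, the libraries used and the replicate block. Lower totals numbered 41 with median-of-ratios scaling, 48 with quantile normalization (22 higher) and 63 with upper-quartile scaling. Estimated library weights gave 155 higher and 77 lower, with a weight of 7.5 on air-dried replicate 3 and of 0.29 to 1.36 on the other libraries. Spans over 10000 bases left 20 higher, loci with no overlap 24, and annotated spans over 8000 bases, chosen after seeing the data, 21. Leaving out a library gave 10 to 27 higher and 2 to 17 lower totals, 1 to 4 higher and 0 to 2 lower transcripts, and 4 to 23 loci with unequal transcripts. A filter at 5 FPKM left 1 such locus. The cause of these shifts was not tested. The balance gave 0 calls in every alternative run.

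The replicate numbers are shared by the groups, and the labels do not say whether they pair the samples. Deviations of same-numbered libraries correlated at 0.0930, 0.187 and -0.124 over all loci tested, and at 0.0954, 0.284 and -0.143 over the long loci. Differently numbered libraries ranged from -0.365 to 0.296 over the long loci. With 3 libraries per group these values cannot decide whether the samples are paired. With the replicate number as a block, 8 totals were higher and 1 lower, 7 of the 52 stayed past the threshold, 0 transcripts were higher and 0 lower, and 2 loci had unequal transcripts. The fall on chromosome 18 and the rise at 20473721 on chromosome 6 then each had a limma adjusted p of 0.0546. Absolute depth is unknown, so the precision of a single FPKM value cannot be given.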
